A study of Mus musculus with 16 samples.

Results

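Cyp17a1, Fmo2, Hao2, A1bg, Prom1 and Atp6v0d2 are mouse liver genes that are known to be favoured by continuous growth hormone and held down by its pulses. They were taken by gene symbol from the raw count table, as 6 of its 40840 rows, and read across 4 groups of genotype and dosing time. Of the 6, 5 passed the filter on low counts that left 14484 genes for testing. Hao2, with 53 reads over all 16 libraries, did not pass and is given by its reads. In rodents the pituitary releases growth hormone in pulses in males and almost continuously in females, and hepatocytes read the pattern through the growth hormone receptor, the kinase JAK2 and the transcription factor STAT5B. Each pulse sends active STAT5 to the nucleus, while continuous hormone keeps it at a lower, steadier level. The repressors BCL6 in male liver and CUX2 in female liver, and the ONECUT factor HNF6, add to the resulting sex bias, so that genes of this kind are usually higher in female than in male liver. All groups were male and growth hormone was not measured, so that description of the genes was not checked by these data.

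All samples were livers of male C57BL/6J mice aged 12 to 16 weeks, either wild type (WT) or Cry1-/- Cry2-/- (CryDKO), which lack both cryptochromes, the main repressors of the circadian clock. Every mouse was synchronized for 3 weeks to 12 h of light and 12 h of darkness, went into constant darkness 3 days before dosing, and was injected in the peritoneum on 3 days with 12 mg/kg of the DNA-crosslinking platinum drug oxaliplatin. Injections were at circadian time 8 (CT8) or 16 (CT16), and each of the groups WT_CT8, WT_CT16, CryDKO_CT8 and CryDKO_CT16 held 4 libraries. The series text also speaks of a single dose, and does not say when livers were collected, so the hour of dosing cannot be told apart from the hour of collection. No untreated group was analysed here, and every group carries the drug. Whether replicates were separate animals is not stated in the labels, so p values measure the spread between libraries, which may be technical. In whole liver, fewer cells of a type and less RNA per cell cannot be told apart.

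Libraries held 18083916 to 29934138 counted reads and are named by the running number of their column. No pair within a group agreed within sampling noise, where chi-square divided by its degrees of freedom was 22.07 to 150.3. Whole-gene reads of Cry2 were lower and those of Cry1 higher in the libraries labelled CryDKO (log2 changes at CT8 of -0.74 ± 0.14 and 1.04 ± 0.17, SE), which does not show the deleted part, so CryDKO stands for the label and each direction by genotype rests on it. The summed level of 4 Y-linked genes was 160.3 to 216.7 CPM, reads scaled to a common library size, in WT and 95.11 to 160.9 CPM in libraries labelled CryDKO, and Xist stayed at or below 0.712 CPM in every library. The 8 hepatocyte markers summed to 48890 to 59390 CPM in WT_CT8, 51680 to 88460 CPM in WT_CT16, 94090 to 131700 CPM in CryDKO_CT8 and 90270 to 145000 CPM in CryDKO_CT16. Most of each sum was Alb, with means of 35950, 49860, 83120 and 88380 CPM in that order of groups. By genotype at CT8, 4 of the 8 rose (Alb, Apoa1, Tat and Hnf4a) and 0 fell, or 2 with scaling by library size alone, in the comparison that held the members' calls. That comparison called 18.7% of all genes higher. At CT16 2 of the 8 rose (Alb and Hnf4a) and 0 fell, where 9.0% of all genes were called higher. The median log2 change of the 8 was 0.644 at CT8 and 0.0655 at CT16. The part of these markers in the members' levels was not tested. Kidney markers summed to at most 0.553 CPM.

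Promoter sequences are shown first because the pathway acts through STAT5 at DNA. The RefSeq table of promoter windows on GRCm38.p6, an older build than the GRCm39 of the counts, held windows of 300 bases for 4 of the 6 genes, A1bg, Fmo2, Hao2 and Prom1, in 6 windows. Cyp17a1 and Atp6v0d2 are named only. Each window was searched on both strands for the STAT5 motif TTCNNNGAA, for the E-box CACGTG, the element bound by CLOCK and BMAL1, and for the ONECUT core ATCAAT. The STAT5 motif was in 8.3% of all 32851 windows, the E-box in 7.15% and the ONECUT core in 7.54%. The A1bg window held all 3, with the E-box 235 bases, the ONECUT core (on the other strand, read as ATTGAT) 150 bases and the STAT5 motif 84 bases before the start of transcription. It lies at chr15:60921271-60921520 of GRCm38.p6, minus strand, and is printed 5′ to 3′ with the 3 matches in capitals. The second Fmo2 start had a STAT5 motif 13 bases after it, shown in capitals with 10 bases on each side at chr1:162898463-162898491, minus strand. None of the motifs occurred in the Hao2 or Prom1 windows, which says only that these letters are not there.
A1bg, 250 bases before the start: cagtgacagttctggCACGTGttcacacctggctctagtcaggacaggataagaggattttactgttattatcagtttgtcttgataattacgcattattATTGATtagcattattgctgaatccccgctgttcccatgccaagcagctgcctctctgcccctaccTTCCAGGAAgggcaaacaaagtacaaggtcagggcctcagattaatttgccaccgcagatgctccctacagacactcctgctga
Fmo2, around the motif: ccagacaagtTTCTCTGAAggggaggaag

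The comparison by genotype after dosing at CT8 held the members' only calls. Cyp17a1 and Prom1 rose in the libraries labelled CryDKO, by 2.26 ± 0.51 and 1.02 ± 0.40 on the log2 scale (SE, n = 4 against 4), with adjusted p = 0.00436 and 0.0476 by the quasi-likelihood F test of edgeR, adjusted by Benjamini-Hochberg over 14484 genes. That is 2 of 5 tested members higher and 0 lower, in a comparison that called 18.7% of all genes higher and 20.3% lower. All 5 tested members had log2 changes above 0 there, with a median of 1.02 beside -0.0158 over all genes. At CT16 none of the 5 passed by genotype, where 9.0% of all genes were called higher and 9.15% lower. 3 of the 5 lay above 0, with a median of 0.642 beside -0.00592. Between dosing times in WT none passed, where 2.53% of all genes were called. Between dosing times in libraries labelled CryDKO none passed either, and the test called 0.0% of genes, with 938 at an unadjusted p under 0.05, 13 called by DESeq2 and 0 by limma voom. For the interaction, which asks whether the genotype difference changes with dosing time, none of the 5 passed and 0.0414% of all genes did.

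**Figure D1:**
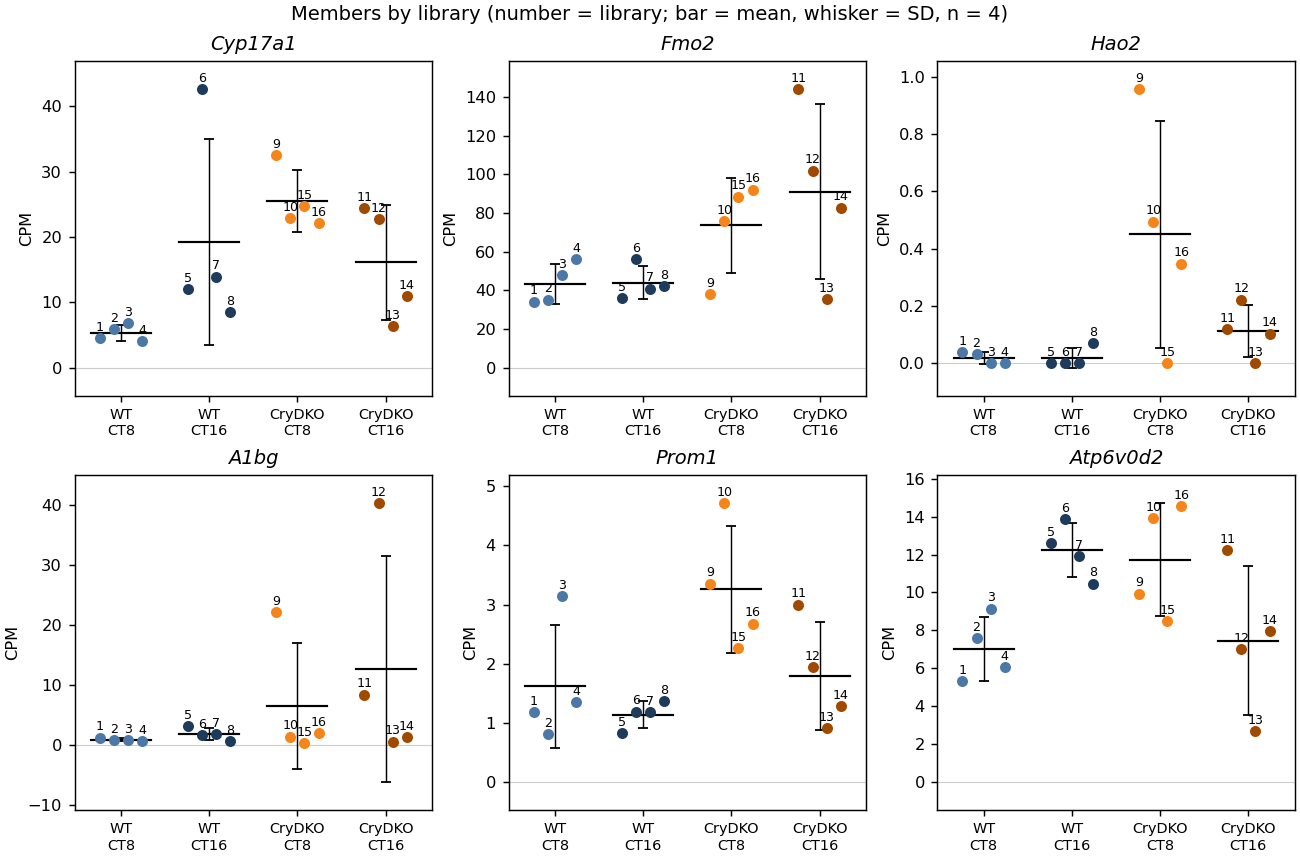
Level of each of the 6 genes in CPM (vertical axes, 1 scale per gene) in the 4 groups; each point is 1 library with its number, the line is the mean and the whisker the SD over 4 libraries. Cyp17a1 lies higher in CryDKO_CT8 than in WT_CT8 without overlap, as do 18.7% of all tested genes. Single libraries stand far above the rest for A1bg (libraries 9 and 12) and Cyp17a1 (library 6).

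Among the enzymes, Cyp17a1 encodes the microsomal cytochrome P450 that hydroxylates progesterone and pregnenolone and then cleaves the side chain to give androgen precursors. In WT_CT8 its 4 libraries stood at 4.56, 5.94, 6.80 and 4.13 CPM. In WT_CT16 they stood at 12.1, 42.7, 13.96 and 8.47 CPM, in CryDKO_CT8 at 32.5, 23.0, 24.7 and 22.1 CPM, and in CryDKO_CT16 at 24.4, 22.7, 6.40 and 10.9 CPM. WT_CT8 was thus the low group, its highest library below the lowest of WT_CT16 and of CryDKO_CT8. Groups without overlap and higher made up 5.52% of all genes between the times in WT and 18.7% by genotype at CT8. The means were 5.36 ± 1.23, 19.3 ± 15.7, 25.6 ± 4.76 and 16.1 ± 8.83 CPM (SD, n = 4) in that order of groups. Ranked by mean, WT_CT8 was lowest, then CryDKO_CT16, WT_CT16 and CryDKO_CT8, and each neighbouring pair overlapped.

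By genotype at CT8 the log2 change of Cyp17a1 had a 95% interval of 1.25 to 3.26, and its call was kept in 26 of 27 other settings, with values of 1.93 to 2.42. The exception was the test against a 2-fold threshold (adjusted p = 0.118). By genotype at CT16 the change was -0.26 ± 0.49 (SE), with an interval of -1.215 to 0.695. Without WT_CT16 library 6 it was 0.49, and without CryDKO_CT16 library 13 it was 0.003, so even its sign rested on single libraries. Between times in WT the change was 1.85 ± 0.51 (adjusted p = 0.061), between times in CryDKO -0.67 ± 0.49 (0.836), and the interaction was -2.52 ± 0.70 (0.219). Between times in WT it passed with DESeq2 (0.00905), limma voom (0.0488), limma voom with quality weights (0.00368), without the robust option (0.0447) and without WT_CT16 library 8 (0.0107), and it fell to 1.11 without library 6. The interaction passed with DESeq2 (adjusted p = 0.0433), limma voom with quality weights (0.019) and without WT_CT16 library 8 (0.0416).

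Fmo2 encodes a flavin-containing monooxygenase, which oxidizes nitrogen and sulfur in drugs and other foreign compounds. Its libraries lay at 34.2, 35.3, 47.7 and 56.2 CPM in WT_CT8 and at 36.2, 56.2, 40.9 and 42.3 CPM in WT_CT16. In CryDKO_CT8 they lay at 38.0, 75.8, 88.5 and 92.1 CPM and in CryDKO_CT16 at 144.1, 101.9, 35.7 and 82.8 CPM. In each group labelled CryDKO 3 libraries stood above all 8 WT libraries, and 1, library 9 or 13, stood among them. By genotype the log2 change was 0.76 ± 0.35 at CT8 (SE; adjusted p = 0.098) and 1.05 ± 0.35 at CT16 (0.0509), with 95% intervals of 0.0753 to 1.45 and 0.362 to 1.74. Between times it was 0.02 ± 0.35 in WT (adjusted p = 0.978) and 0.31 ± 0.35 in CryDKO (0.889), and the interaction was 0.29 ± 0.49 (0.836).

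Neither genotype difference of Fmo2 passed, and both turned on settings. Without CryDKO_CT16 library 13 the changes were 1.32 at CT16 (adjusted p = 0.00516) and 0.77 at CT8 (0.0242), and without CryDKO_CT8 library 9 they were 1.04 (0.0301) and 1.01 (0.0293). DESeq2 gave adjusted p = 0.00977 at CT16 and 0.0454 at CT8. At CT16 the gene also passed without the robust option (0.0296) and with a minimum mean of 50 reads (0.0489), and at CT8 in a fit of only the 2 groups (0.0482).

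Hao2 encodes a peroxisomal oxidase of hydroxy acids. Its reads were 1, 1, 0 and 0 in the libraries of WT_CT8, and 0, 0, 0 and 2 in WT_CT16. They were 22, 11, 0 and 7 in CryDKO_CT8, and 2, 5, 0 and 2 in CryDKO_CT16. The gene was close to the detection limit in WT, and in each group labelled CryDKO 3 of 4 libraries had reads while library 15 or 13 had none. Summed over libraries and scaled to depth, 40 reads against 2 at CT8 gave a ratio of 26.4 (exact 95% interval 6.84 to 225). At CT16, 9 reads against 2 gave 6.34 (1.31 to 60.3). These intervals cover counting error only. Over libraries, a two-sided exact permutation test gave p = 0.143 at each time, where the smallest p that 4 against 4 allows is 0.0286. Run without the low count filter, DESeq2 gave adjusted p = 0.00529 for Hao2 at CT8 and edgeR's test 0.00161, and limma on the deposited normalized values gave 0.0198.

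A1bg encodes a secreted plasma glycoprotein of the immunoglobulin superfamily. Its libraries stood at 1.21, 0.867, 0.839 and 0.638 CPM in WT_CT8 and at 3.18, 1.65, 1.76 and 0.662 CPM in WT_CT16. In CryDKO_CT8 they stood at 22.2, 1.39, 0.332 and 1.98 CPM, and in CryDKO_CT16 at 8.41, 40.4, 0.571 and 1.28 CPM. Library 9, with 510 reads, and libraries 12 and 11, with 913 and 143, held most of the signal, while libraries 15 and 13 lay below all WT libraries. The highest library exceeded the lowest 67.0 times in CryDKO_CT8 and 70.7 times in CryDKO_CT16, where the median gene differed 1.57 and 1.59 times, and in CryDKO_CT8 99.9% of tested genes had a smaller ratio.

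By genotype the log2 change of A1bg was 2.87 ± 1.38 at CT8 (SE; adjusted p = 0.118) and 2.82 ± 1.32 at CT16 (0.158). Without library 9 the CT8 value was 0.52, and without library 12 the CT16 value was 0.91. Between times the changes were 1.01 ± 1.40 in WT (adjusted p = 0.669) and 0.96 ± 1.21 in CryDKO (0.902), and the latter was -0.94 without library 12 and 3.33 without library 9. The interaction was -0.05 ± 1.72 (adjusted p = 0.993). Of the other settings only DESeq2 called a difference, at CT8 (adjusted p = 0.0408). In the GENCODE annotation of GRCm38 A1bg, on chromosome 15, overlaps the antisense gene 4930402D18Rik, and the strand setting of the counting was not given, so their reads cannot be told apart here.

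Prom1 encodes prominin-1 (CD133), a membrane glycoprotein of cell surface protrusions that is also known from progenitor cells and bile duct epithelium. Its libraries stood at 1.18, 0.805, 3.15 and 1.35 CPM in WT_CT8, 0.825, 1.19, 1.18 and 1.36 CPM in WT_CT16, 3.36, 4.72, 2.27 and 2.68 CPM in CryDKO_CT8, and 3.00, 1.95, 0.914 and 1.28 CPM in CryDKO_CT16. In CryDKO_CT8 all 4 stood above 7 of the 8 WT libraries, and WT_CT8 library 3 reached into their range. The CT8 change by genotype had a 95% interval of 0.242 to 1.80. It passed in 14 of 26 other settings. Leaving out WT_CT8 library 1, 2 or 4 gave adjusted p = 0.11, 0.143 and 0.104, leaving out WT_CT16 library 6 or 7 gave 0.0509 and 0.0528, leaving out CryDKO_CT8 library 9 or 10 gave 0.0717 and 0.147, and leaving out CryDKO_CT16 library 12 gave 0.0526. Without WT_CT8 library 3 it was 1.58 (adjusted p = 0.00501). It was also lost with the 2-fold test (adjusted p = 1.0), without the robust option (0.05004), in a fit of only the 2 groups (0.0576) and with scaling by library size alone, at 0.71 (0.187), which moved the median of all genes to -0.356. At CT16 the change was 0.64 ± 0.41 (SE; adjusted p = 0.292), between times in WT -0.49 ± 0.41 (0.45), between times in CryDKO -0.87 ± 0.40 (0.769), and the interaction -0.38 ± 0.57 (0.809). Without WT_CT8 library 3 the change between times in WT was 0.09.

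Markers of bile duct epithelium are given because Prom1 is also known from those cells. Of 7 tested, 2 rose by genotype at CT8, where 18.7% of all genes did, the keratin genes Krt19 (2.10 ± 0.43 on the log2 scale, SE) and Krt7 (1.32 ± 0.45), and 0 fell. Only 1 marker passed without WT_CT8 library 1, 2 or 4, and up to 3 passed without another library. At CT16 1 marker rose and 1 fell, and 0 to 2 passed when a library was left out. The 8 markers together summed to 39.75 to 109.9 CPM in WT_CT8, 61.42 to 92.64 CPM in WT_CT16, 64.46 to 167.5 CPM in CryDKO_CT8 and 61.5 to 168.0 CPM in CryDKO_CT16. The largest part in every library was Spp1, at 20.8 CPM in library 1 to 130.5 CPM in library 16. Spp1 is also on the list of lipid-associated macrophages and osteoclasts below, so the sums are not specific to bile ducts. All 8 had reads, the lowest being Cftr, a chloride channel gene, with 70 in all. Markers of stellate cells and fibroblasts also rose at CT8, 4 of 9 (Col1a1, Col1a2, Col3a1 and Pdgfrb), with sums of 105.1 to 148.1 CPM in WT_CT8 and 134.0 to 261.4 CPM in CryDKO_CT8. Their part in the Prom1 result was not tested. On chromosome 5 Prom1 overlaps Gm42716, on the same strand, and the antisense gene Gm16401 in the same annotation. Without the strand setting, reads of Gm16401 cannot be told apart from those of Prom1. For Gm42716 even the strand setting would not separate them.

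Atp6v0d2 encodes the d2 subunit of the membrane sector of the vacuolar proton pump, best known from osteoclasts and macrophages. Its libraries stood at 5.33, 7.58, 9.15 and 6.04 CPM in WT_CT8 and at 12.6, 13.9, 11.9 and 10.5 CPM in WT_CT16. In CryDKO_CT8 they stood at 9.94, 13.9, 8.47 and 14.6 CPM, and in CryDKO_CT16 at 12.2, 6.99, 2.68 and 7.94 CPM. All WT_CT16 libraries lay above all WT_CT8 libraries, as in 5.52% of all tested genes, and every other pair of groups compared overlapped. The changes were 0.80 ± 0.31 between times in WT (SE; adjusted p = 0.113), -0.65 ± 0.31 between times in CryDKO (0.769), 0.74 ± 0.31 by genotype at CT8 (0.0638) and -0.71 ± 0.31 by genotype at CT16 (0.115). The interaction was -1.45 ± 0.43 (adjusted p = 0.219), with a 95% interval of -2.30 to -0.603. The genotype difference lay above 0 at CT8 and below 0 at CT16, and the interaction did not pass.

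The calls of Atp6v0d2 also turned on settings. Between times in WT it passed with quality weights (adjusted p = 0.0133) and in a fit of only the 2 groups (0.0296). At CT8 it passed in 8 of 27 other settings, among them DESeq2 (adjusted p = 0.0434), limma voom (0.0429) and the fit without CryDKO_CT16 library 13 (0.0113). At CT16 it passed with limma voom (0.0473), with quality weights (0.01) and without CryDKO_CT16 library 11, at -1.05 (0.0216). The interaction passed with quality weights alone (0.0203). Of 5 tested markers of lipid-associated macrophages and osteoclasts, 1, the tetraspanin gene Cd9, rose at CT8 and none passed at CT16, where 18.7% and 9.0% of all genes were called higher. The 7 markers summed to 97.43 to 175.8 CPM in WT_CT8, 117.0 to 180.5 CPM in WT_CT16, 132.5 to 223.6 CPM in CryDKO_CT8 and 128.9 to 248.8 CPM in CryDKO_CT16, most of it from Acp5 and Spp1. Of 10 macrophage markers 2 rose at CT8 (C1qa and C1qb) and 4 at CT16 (with Marco and Csf1r), and 0 fell, against the same shares of all genes. Without CryDKO_CT8 library 9 0 passed at CT8, and without WT_CT16 library 8 7 rose at CT16. Their sums were 58.94 to 87.06, 27.84 to 104.4, 70.09 to 173.9 and 108.8 to 191.3 CPM in the same order of groups. The part of these cells in the Atp6v0d2 levels was not tested.

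**Figure D2:**
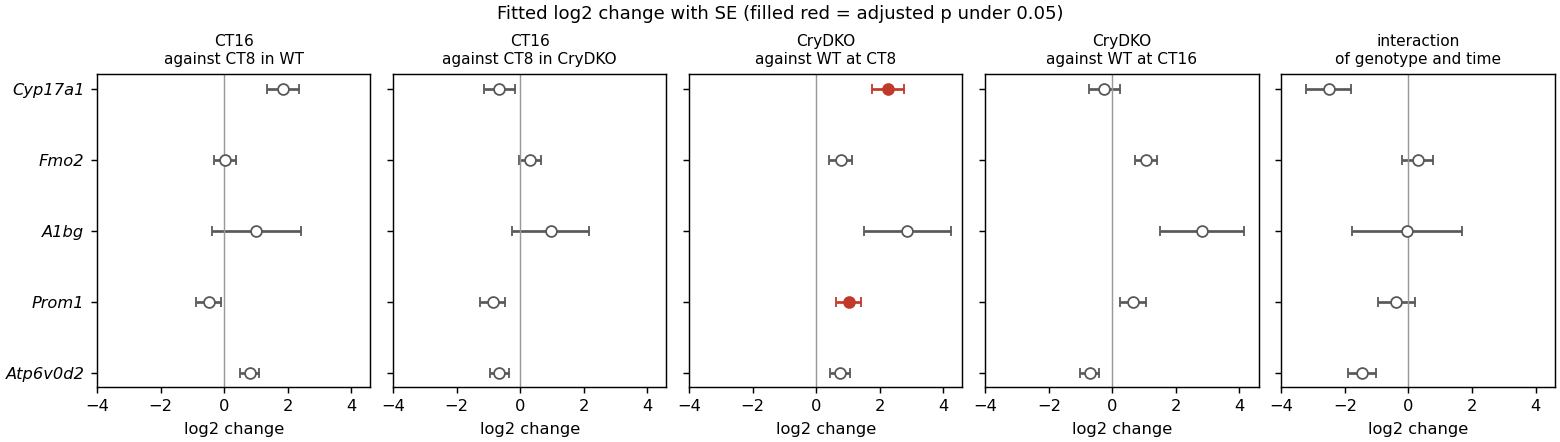
Fitted log2 change with its SE (horizontal axis) for the 5 tested genes in the 5 comparisons; red filled points have an adjusted p under 0.05. Only Cyp17a1 (2.26) and Prom1 (1.02) by genotype at CT8 are filled, and the bars of A1bg are the widest.

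Per kilobase of exon, with lengths from the GRCm38 annotation, Fmo2 had the highest level of the 6 in every group, a mean of 7.73 CPM per kb in WT_CT8, 7.83 in WT_CT16, 13.1 in CryDKO_CT8 and 16.2 in CryDKO_CT16. Hao2 had the lowest in every group, from 0.00826 to 0.22 CPM per kb. Between them the order changed with the group. In WT_CT8 Atp6v0d2 (2.59 CPM per kb) stood above Cyp17a1 (1.93), and in CryDKO_CT8 Cyp17a1 (9.23) stood above Atp6v0d2 (4.32). For each of the 6 genes the group means could be ranked, but every pair of neighbouring groups in that rank overlapped between libraries.

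**Figure D3:**
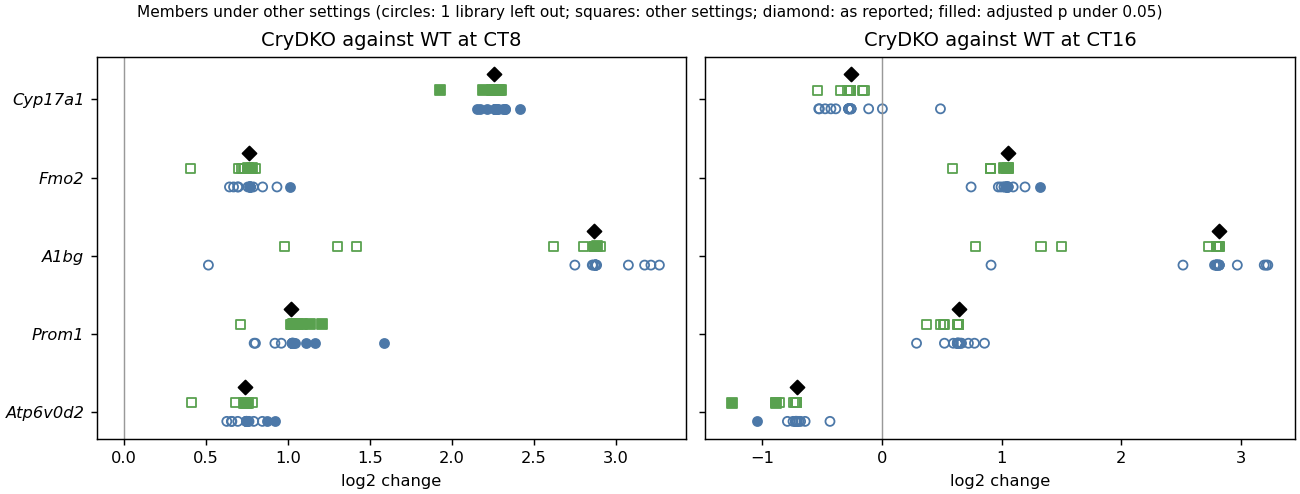
Log2 change by genotype (horizontal axes) of the 5 tested genes at CT8 (left) and CT16 (right); the diamond is the value reported, circles leave out 1 library each, squares are the other settings, and filled circles and squares have an adjusted p under 0.05 (the diamond is filled throughout). At CT8 Cyp17a1 stays between 1.93 and 2.42, while A1bg runs from 0.52 to 3.27.

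Close relatives of the members in sequence or pathway are given beside them. Of 7 such genes 6 were tested, since Prom2 had 8 reads in all. By genotype at CT8 0 rose and 1 fell, where 18.7% of all genes were called higher and 20.3% lower. At CT16 none passed, where the shares were 9.0% and 9.15%. Between times none passed either, where 2.53% of all genes were called in WT and 0.0% in CryDKO. The CT8 count was 2 without WT_CT8 library 1, WT_CT16 library 8 or CryDKO_CT8 library 9, and 1 passed between times in WT without WT_CT16 library 8. Cyp21a1, a steroid hydroxylase of the adrenal cortex, fell by 2.49 on the log2 scale at CT8 (SE 0.57; adjusted p = 0.00336), to at most 3.1 CPM. A near-identical pseudogene makes its counts uncertain. Fmo1, Fmo4, Fmo5, Hao1 and Atp6v0d1 passed in no comparison. By genotype at CT8 Hao1, the glycolate oxidase, changed by -0.01 ± 0.22 and Atp6v0d1, the widely expressed d1 subunit, by 0.31 ± 0.14 (adjusted p = 0.0748). Hao1 was far above Hao2, at 77.1 to 88.7 CPM per kb. Of 6 markers of steroid-making glands, Cyp11a1, Cyp11b1 and Nr5a1 had 0 reads in all 16 libraries and Cyp11b2 had 1. Star, which encodes the carrier that brings cholesterol into mitochondria, had 852 reads and Insl3 had 282, both with reads in every library. Star stood at a mean of 3.12 ± 0.633 CPM in WT_CT8 and 1.62 ± 0.683 CPM in CryDKO_CT8 (SD, n = 4) and fell by 0.94 on the log2 scale (SE 0.28; adjusted p = 0.0117), a call lost without CryDKO_CT8 library 9 (adjusted p = 0.0516). The 6 markers summed to 1.38 to 5.07 CPM, and their part in the Cyp17a1 levels was not tested.

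**Figure D4:**
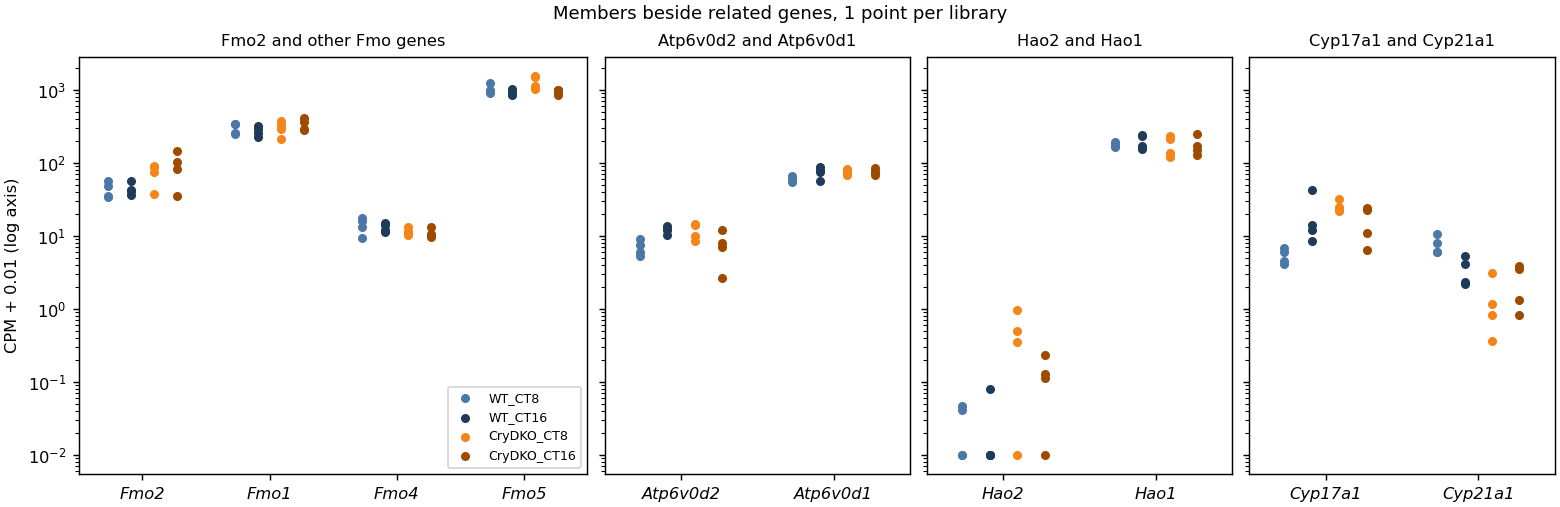
CPM with 0.01 added (vertical log axis) of 4 of the members and their relatives, 1 point per library, coloured by group; points on 0.01 have 0 reads. Fmo1, Fmo4, Fmo5 and Hao1 have overlapping ranges by genotype at CT8, while Cyp21a1 lies lower and Atp6v0d1 slightly higher in every CryDKO_CT8 library than in WT_CT8. In that comparison 18.7% of all tested genes lie higher without overlap, and the share lower is not given here. Atp6v0d1 did not pass.

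Of 31 other liver genes known as female-biased, 25 were tested, and by genotype at CT8 12 rose and 0 fell, with a median log2 change of 1.86 beside -0.0158 over all genes. The background was 18.7% higher and 20.3% lower. When a library was left out, 7 to 17 passed at CT8 and 4 to 8 at CT16. The count of 7 came without WT_CT8 library 2 or 4 or CryDKO_CT8 library 9. At CT16 6 rose and 0 fell (median 1.38), against 9.0% and 9.15%. Medians were the same with Cyp2b13 or Cyp3a44, which had 0 reads in a WT group, set at a bound of 3 reads over the group. Among those that rose were the cytochrome P450 genes Cyp2b9 (7.50 ± 0.73 at CT8 and 7.01 ± 0.71 at CT16), Cyp2c40 (3.07 ± 0.45 and 2.53 ± 0.43) and Cyp39a1 (2.24 ± 0.20 and 1.62 ± 0.19). The hepcidin gene Hamp2 rose at CT8 by 4.34 ± 0.95. Between times in WT 1 of 25 rose (Cyp39a1, 0.73 ± 0.19; adjusted p = 0.0458), a call lost without WT_CT8 library 1, 2, 3 or 4, WT_CT16 library 5, 6 or 7, or CryDKO_CT16 library 13. In CryDKO none passed.

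Of 22 male-biased liver genes, which pulses are known to favour, 20 were tested. At CT8 0 rose and 7 fell by genotype (median -1.55 beside -0.0158 over all genes), where 20.3% of all genes were called lower. At CT16 0 rose and 4 fell (median -0.692 beside -0.00592), where 9.15% were. Among them were Nudt7, a peroxisomal hydrolase gene (-2.22 ± 0.32 and -0.93 ± 0.31), Selenbp2, a selenium-binding protein gene (-2.14 ± 0.62 and -2.77 ± 0.64), and Bcl6, the pulse-dependent repressor itself (-1.52 ± 0.35 and -1.57 ± 0.36). The CT8 count was 4 without WT_CT8 library 4 and 11 without CryDKO_CT8 library 15 or CryDKO_CT16 library 13. At CT16 only 2 passed without WT_CT16 library 7 or 8 or CryDKO_CT16 library 11, 12 or 14. All lists share the same libraries, so they are not independent of each other.

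**Figure D5:**
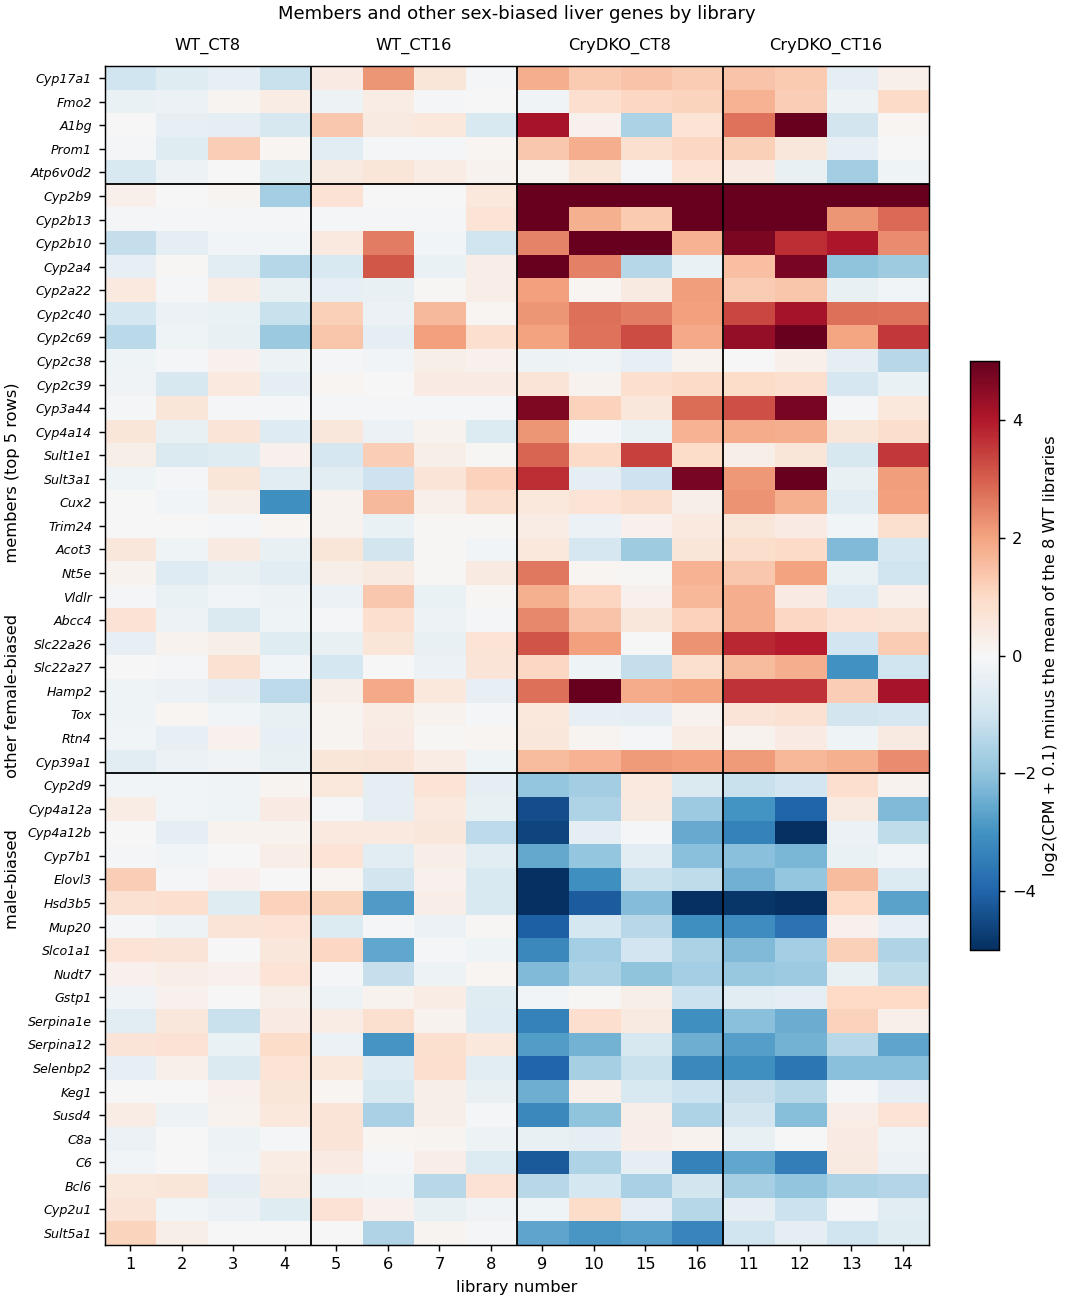
Log2(CPM + 0.1) of each gene in each library minus its mean over the 8 WT libraries (colour; values beyond 5 in either direction share the end colours); rows are the 5 tested members, then the other tested female-biased and male-biased genes, columns the 16 libraries by group. Within the groups labelled CryDKO, library 13 shows mostly pale or reversed colours, and Cyp2b9 stays high in all 8.

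Of 31 tested genes of growth hormone signalling and its regulators, 9 rose and 6 fell by genotype at CT8, where 18.7% of all genes were called higher and 20.3% lower. At CT16 8 rose and 3 fell, where the shares were 9.0% and 9.15%. When a library was left out, 10 to 15 of the list passed at CT8 and 7 to 13 at CT16. The count of 7 came without CryDKO_CT16 library 11 or 12. The growth hormone receptor gene Ghr fell at both times (-0.78 ± 0.20 and -0.89 ± 0.21, SE; adjusted p = 0.00605 and 0.0058), as did Igf1, the growth factor gene that the receptor drives in liver (-0.63 ± 0.21 and -0.70 ± 0.21; 0.0221 and 0.0253). Igfbp2, which encodes a binding protein of that factor, rose at both (2.08 ± 0.30 and 1.71 ± 0.29), and so did Lepr, the leptin receptor gene (5.28 ± 0.79 and 4.63 ± 0.76). Hnf4a, a hepatocyte transcription factor gene, rose by 0.84 ± 0.17 and 0.70 ± 0.17. The feedback inhibitor gene Socs2 rose at CT16 (1.24 ± 0.37; adjusted p = 0.0335). Stat5a was also called higher at CT16, with means of 8.65 CPM in WT_CT16 and 12.7 CPM in CryDKO_CT16, and was not called at CT8. Between times in WT Stat5a, at 13.7 CPM in WT_CT8, was the only 1 of the 31 called, and it fell. There 2.53% of all genes were called, and 0 to 4 of the list when a library was left out. Between times in CryDKO 0 of the list were called. Stat5b changed by 0.34 ± 0.17 and 0.45 ± 0.17 (adjusted p = 0.122 and 0.0776), Cish by -0.76 ± 0.60 and 1.07 ± 0.60, and Cux2, the female-biased repressor, by 0.92 ± 0.64 and 0.85 ± 0.63, none past the threshold. Onecut1, which encodes HNF6, changed by 0.05 ± 0.58 and 1.47 ± 0.59 (adjusted p = 0.103 at CT16). Transcript counts carry no measure of hormone, of its pulses or of STAT5 phosphorylation.

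Single libraries of a group stood low or high in several members at once, and in other sex-biased genes. CryDKO_CT16 library 13 was the lowest of its group in 5 of 5 tested members and in 19 of 25 other female-biased genes, and the highest in 16 of 20 male-biased genes. Over all tested genes it was lowest in 17.4% and highest in 19.1%. CryDKO_CT8 library 15 was lowest in 3 of 5 members and 15 of 25 other female-biased genes (22.5% of all genes) and highest in 13 of 20 male-biased genes (22.0%). WT_CT16 library 6, which held the high Cyp17a1 value, was highest in 3 of 5 members and 11 of 25 other female-biased genes (20.9% of all genes). It was lowest in 11 of 20 male-biased genes, and also in 8 of 25 other female-biased genes (24.1% of all genes). Members did not all follow 1 order of libraries. CryDKO_CT8 library 9 was lowest of its group for Fmo2 and highest for Cyp17a1 and A1bg. Across the 16 libraries, Pearson's r of log2 CPM between pairs of tested members was 0.233 to 0.627, given as a description of points that share 4 groups.

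The same measure was taken over 16 libraries for 10267 tested genes whose log2 CPM averaged 1 or more. Members and genes with only a model or clone name were left out. The genes most like Cyp17a1 were Nipal1, a magnesium transporter gene (r = 0.966), and Sult1a1, a phenol sulfotransferase gene (0.917). For Fmo2 they were Dhodh, an enzyme gene of pyrimidine synthesis (0.857), and Spp1, the osteopontin gene and a marker of bile ducts and macrophages in the lists above (0.825). For A1bg the first was Ralgps2 (0.826), and Nt5e, a female-biased nucleotidase gene, was among its 5 closest (0.814). For Prom1 the closest were Ehd2 (0.900) and Mfge8 (0.863), and for Atp6v0d2 Sh2d4a (0.872), Echdc3 (0.846) and the water channel gene Aqp8 (0.841).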

How the data were processed

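Poly(A) RNA of mouse liver was sequenced in 16 libraries, per the labels. Per the submitters' processing notes, the tools were FastQC, Trimmomatic 0.35, STAR 2.5.3, HTSeq 1.99.2 and DESeq2, on the build GRCm39 (mm39). Annotation and strand setting are not given in the sources used here. Counts, as deposited by the authors, are whole numbers of reads per gene symbol, not normalized, and are the basis of every value unless another is named. Per the values, the authors' deposited normalized table holds a signal, each count column divided by 1 size factor; it lists 19592 genes, and 4 of its CryDKO_CT8 columns carry each other's numbers. It served 1 alternative only.

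In R 4.3.3, edgeR 4.0.16 fitted a robust quasi-likelihood model to all 16 libraries with 1 coefficient per group, after filterByExpr and TMM scaling (trimmed mean of M values). P values of the 5 comparisons are two-sided, Benjamini-Hochberg adjusted over 14484 genes, with a threshold of 0.05. The SE of a log2 change is its size over the root of the F statistic. The 95% interval of a log2 change takes a normal quantile of that SE and is not adjusted for the number of genes. It can therefore exclude no change where the adjusted p does not pass. CPM use the scaled library sizes. The design counts as 4 libraries a group, taken from column names. Alternatives were DESeq2 1.42.0, limma 3.58.1 (voom, voom with quality weights, trend on the normalized table with 1 added), other scalings and filters, a fit without the robust option, a test against a 2-fold change, a fit of the compared groups alone, and each library left out in turn. The procedure was tested on simulated data, in the 4 comparisons other than the interaction. It called 6.0 to 18.0% of 1.5-fold changes and 54.0 to 58.0% of 2-fold changes. In each comparison 50 genes per fold were changed, drawn at random from all tested genes. The rates therefore need not hold for a single member, or for a comparison with many calls. A member that did not pass may still have changed by such an amount. Figures used Python 3.11.15.

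The members, gene lists and tests were chosen with earlier results of these data known. A few list genes are not reported here and were left out of the lists and their counts, after values had been seen. Named were all members and their relatives, the 5 genes most like each tested member and up to 4 genes per list with the lowest adjusted p in a comparison; not every such gene is given. Stat5b, Cish, Cux2 and Onecut1 were named for their known roles, with their values seen.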

Additional observations from a re-analysis of the deposited data

Results flagged for a closer look

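In 3 of 24 pairs of a gene and a group, 1 library stood apart from the other 3; chance gives about 1 in 20 such pairs. Cyp17a1 stood at 42.7 CPM in WT_CT16 library 6, where the next library had 13.96 CPM. A1bg stood at 22.2 CPM in CryDKO_CT8 library 9, where the next had 1.98 CPM. Hao2 stood at 0.0697 CPM in WT_CT16 library 8, which is 2 reads where the other 3 libraries had 0, a pattern that meets the rule at any count. Their cause was not tested.

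Outside the members, the genotype difference of Sult5a1, a male-biased sulfotransferase gene, differed between dosing times. It was -3.52 ± 0.38 on the log2 scale at CT8 and -0.54 ± 0.33 at CT16, an interaction of 2.98 ± 0.50 (SE; adjusted p = 0.0398 in the edgeR fit). The interaction did not pass with limma voom, library size alone, the minimum mean of 50 reads or the 2-fold test. With a library left out it was 2.62 to 3.13, and it did not pass without WT_CT8 library 1, 2 or 4, WT_CT16 library 5, CryDKO_CT8 library 9 or 10, or CryDKO_CT16 library 12 or 13 (highest adjusted p = 0.096).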

How the results depend on the processing

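No paired analysis was possible because the columns carry running library numbers and no replicate number, so the planned block was not run. Each of the 16 libraries was left out in turn, and 11 other settings were tried. Under them 598 member values kept their direction and side of the threshold, 32 newly passed, 13 no longer passed and 22 changed sign. Members called ranged over 0 to 1 (times in WT), 0 to 0 (times in CryDKO), 1 to 4 (genotype at CT8), 0 to 1 (CT16) and 0 to 1 (interaction) when a library was left out, and genes called over 0 to 3580, 0 to 3, 4274 to 6112, 1821 to 2742 and 0 to 568. Members called between times in WT were 1 with DESeq2, voom, no robust option or only the groups compared, and 2 with quality weights. By genotype at CT8, where 2 are reported, they were 6 with DESeq2, 3 with voom, quality weights, trend, no filter or only the groups, 1 with library size alone, a minimum mean of 50 reads or no robust option, and 0 with the 2-fold threshold. At CT16 they were 1 with DESeq2, voom, quality weights, the minimum mean or no robust option. For the interaction they were 1 with DESeq2 and 2 with quality weights. Genes called between times in WT were 1570 (DESeq2), 955 (voom), 5237 (quality weights), 118 (trend), 663 (no filter), 0 (2-fold) and 712 (only the groups). In CryDKO they were 13 (DESeq2), 1 (trend) and 2 (no filter). By genotype at CT8 DESeq2 called 6117 of 17645 genes, 2977 of them higher. Other counts there were 5816 (voom), 6610 (quality weights), 5877 (trend), 5345 (no filter), 5930 (only the groups), 4577 (minimum mean) and 5691 (no robust option). At CT16 they were 3131 (DESeq2), 2535 (voom), 3293 (quality weights), 2415 (minimum mean) and 2659 (no robust option). The 2-fold threshold left 274 genes at CT8 and 70 at CT16. For the interaction they were 133 (DESeq2), 1 (voom), 940 (quality weights), 10 (trend), 0 (library size alone), 30 (no filter), 1 (minimum mean) and 0 (2-fold). Library size alone moved the median of all genes by -0.288 between times in WT, -0.356 at CT8 and -0.157 at CT16, with splits of 18 higher and 354 lower, 961 and 5127, and 605 and 1883.

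Signs turned only for values that did not pass. Fmo2 between times in WT was -0.0689 with quality weights, -0.23 with library size alone, -0.0288 with the minimum mean, and -0.12 to 0.20 without a library. With quality weights Fmo2 was -0.22 between times in CryDKO and -0.15 for the interaction, which ran from -0.0261 to 0.55 without a library. The A1bg interaction was 0.0825 with voom, 0.0267 with trend, 0.11 with library size alone and -1.96 to 2.28 without a library. Without a library, A1bg between times in CryDKO ran from -0.94 to 3.33, Cyp17a1 by genotype at CT16 from -0.53 to 0.49, and Prom1 between times in WT from -0.69 to 0.0854. The cause was not tested. With 1.14 to 1.62 CPM in WT, Prom1 is the thinnest of the tested members beside A1bg, and Hao2, with 53 reads, did not pass the low count filter of the reported fit.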
